A study of Mus musculus with 18 samples.

Results

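The immediate early genes of neuronal activity described here are *Fos*, *Fosb*, *Junb*, *Egr1*, *Egr2*, *Egr3*, *Arc*, *Npas4*, *Nr4a1* and *Dusp1*. They were chosen by name, as the probesets of the array whose platform annotation gives one of these symbols. Each symbol was held by exactly 1 probeset, so the 10 genes were read by 10 of the 34760 probesets on the array and are 10 of the 19937 genes named by a probeset with 1 symbol. A value was present for each gene in each mouse.

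Immediate early genes are transcribed within minutes of a stimulus, before any new protein has to be made. In neurons, synaptic input raises calcium and activates kinases that act on the transcription factors CREB, SRF and MEF2, which already sit at these promoters. Most of the genes encode transcription factors themselves (the Fos and Jun families, the Egr zinc fingers, Npas4 and the orphan nuclear receptor Nr4a1), while Arc regulates AMPA receptors at the synapse and Dusp1 is a phosphatase that switches off MAP kinases. In the hypothalamus, *Fos* is widely used to mark neurons that were recently active.

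Hypothalamic RNA of 18 male mice was read on 18 separate arrays (Affymetrix Mouse Gene 1.0 ST). BPH/2J is the inbred Schlager strain with high blood pressure (BP) and BPN/3J is the inbred normotensive strain set against it. At ‘peak’ BP, in the active period, 6 BPH/2J and 6 BPN/3J mice had been killed, and at ‘trough’ BP, in the inactive period, 3 of either strain. The age was 26 weeks at ‘peak’ BP. At ‘trough’ BP it was 18 weeks in the labels of the samples and 19 in the series description, so that age and period differ together and cannot be told apart. The strain characteristic and source name of the 3 BPN/3J ‘trough’ mice read BPH/2J, and their titles were followed. At 128 probesets whose ‘peak’ groups did not overlap and differed by 1 or more between the strains, the 3 BPH/2J ‘trough’ mice lay nearer to the BPH/2J ‘peak’ mean at 84.4% to 93.8% of them, and the 3 BPN/3J ‘trough’ mice at 21.1% to 33.6%. The labels name the hypothalamus as the tissue and the methods describe dissection of the paraventricular and dorsomedial nuclei. By the methods, the mice were killed with an overdose of pentobarbitone.

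Values are on the log2 scale after robust multi-array averaging (RMA), as deposited, and a difference of 1 is a 2-fold change. Array medians ran between 6.17 and 6.42. Of the listed hypothalamic markers, 13 of 14 measured lay above the median of all probesets and *Six6* lay below it. All 10 neuron markers lay above that median, and their mean was between 11.46 and 11.60 in each mouse. The mean of 7 cortex and hippocampus markers stood apart in BPN/3J ‘peak’ mouse 8 (8.13) and BPN/3J ‘trough’ mouse 4 (7.995), against at most 7.42 in the other mice. The mean of 5 pituitary markers stood apart in BPN/3J ‘trough’ mouse 3 (8.21, against at most 6.03 in the others). In pieces of tissue, fewer active cells and less RNA per cell cannot be told apart.

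Promoter windows, from 250 bases before to 50 bases after a transcription start, were held for 7 of the 10 genes (RefSeq, build GRCm38.p6). The windows of *Fos* (chr12:85473640-85473939, plus strand), *Npas4* (chr19:4989922-4990221, minus strand), *Dusp1* (chr17:26508423-26508722, minus strand) and *Nr4a1* (chr15:101266596-101266895, plus strand) are shown because these genes varied together from mouse to mouse, and that of *Fosb* (chr7:19309996-19310295, minus strand) because it moved the other way from *Fos* in BPN/3J mice. Each is written 5′ to 3′ on the strand of the gene, and capitals mark TGACG or its reverse complement CGTCA, the core of the CREB binding element.
Fos: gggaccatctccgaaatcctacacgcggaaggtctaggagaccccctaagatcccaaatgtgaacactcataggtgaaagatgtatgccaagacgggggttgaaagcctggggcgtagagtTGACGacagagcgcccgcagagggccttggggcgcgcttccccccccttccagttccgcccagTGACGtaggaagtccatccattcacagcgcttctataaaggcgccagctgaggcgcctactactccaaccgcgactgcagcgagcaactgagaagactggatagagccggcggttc
Npas4: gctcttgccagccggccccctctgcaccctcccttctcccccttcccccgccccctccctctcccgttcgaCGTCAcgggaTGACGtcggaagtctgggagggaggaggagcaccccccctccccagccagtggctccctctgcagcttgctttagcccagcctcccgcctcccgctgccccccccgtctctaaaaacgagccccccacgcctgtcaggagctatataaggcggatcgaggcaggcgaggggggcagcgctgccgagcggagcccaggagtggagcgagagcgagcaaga
Dusp1: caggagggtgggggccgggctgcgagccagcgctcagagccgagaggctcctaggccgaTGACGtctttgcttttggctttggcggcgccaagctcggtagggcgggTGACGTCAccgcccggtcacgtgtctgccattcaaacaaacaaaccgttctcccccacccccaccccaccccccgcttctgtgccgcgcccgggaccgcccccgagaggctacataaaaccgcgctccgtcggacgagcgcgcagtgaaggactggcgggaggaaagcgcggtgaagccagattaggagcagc
Nr4a1: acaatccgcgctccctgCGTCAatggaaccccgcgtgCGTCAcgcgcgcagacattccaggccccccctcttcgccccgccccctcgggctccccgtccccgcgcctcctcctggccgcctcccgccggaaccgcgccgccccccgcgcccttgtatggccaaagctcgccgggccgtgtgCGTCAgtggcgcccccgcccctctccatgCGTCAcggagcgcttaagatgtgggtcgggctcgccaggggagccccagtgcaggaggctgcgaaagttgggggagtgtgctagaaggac
Fosb: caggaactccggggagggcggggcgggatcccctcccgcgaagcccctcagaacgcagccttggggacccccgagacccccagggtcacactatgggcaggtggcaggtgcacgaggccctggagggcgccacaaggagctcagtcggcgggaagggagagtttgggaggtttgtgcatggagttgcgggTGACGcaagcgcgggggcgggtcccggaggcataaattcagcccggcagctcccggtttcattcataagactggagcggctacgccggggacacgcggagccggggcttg
The TGACG core, on either strand, stood 2 times in the *Fos* window, 2 times in the *Npas4* window, 3 times in the *Dusp1* window, 4 times in the *Nr4a1* window and 1 time in the *Fosb* window. The full palindrome TGACGTCA, in which the core overlaps its own complement, was found in the *Dusp1* window. Of the 11 windows of the 7 genes, which include 5 overlapping or neighbouring starts of *Egr2*, 9 held the core, against 20.8% of all 32851 windows in the table. TGACGTCA was held by 1.79% of all windows. The CArG box, the SRF binding element, was held by 4 of the 5 *Egr2* windows and by 1.63% of all windows. These matches describe letters in a window and are not evidence of binding.

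**Figure D1:**
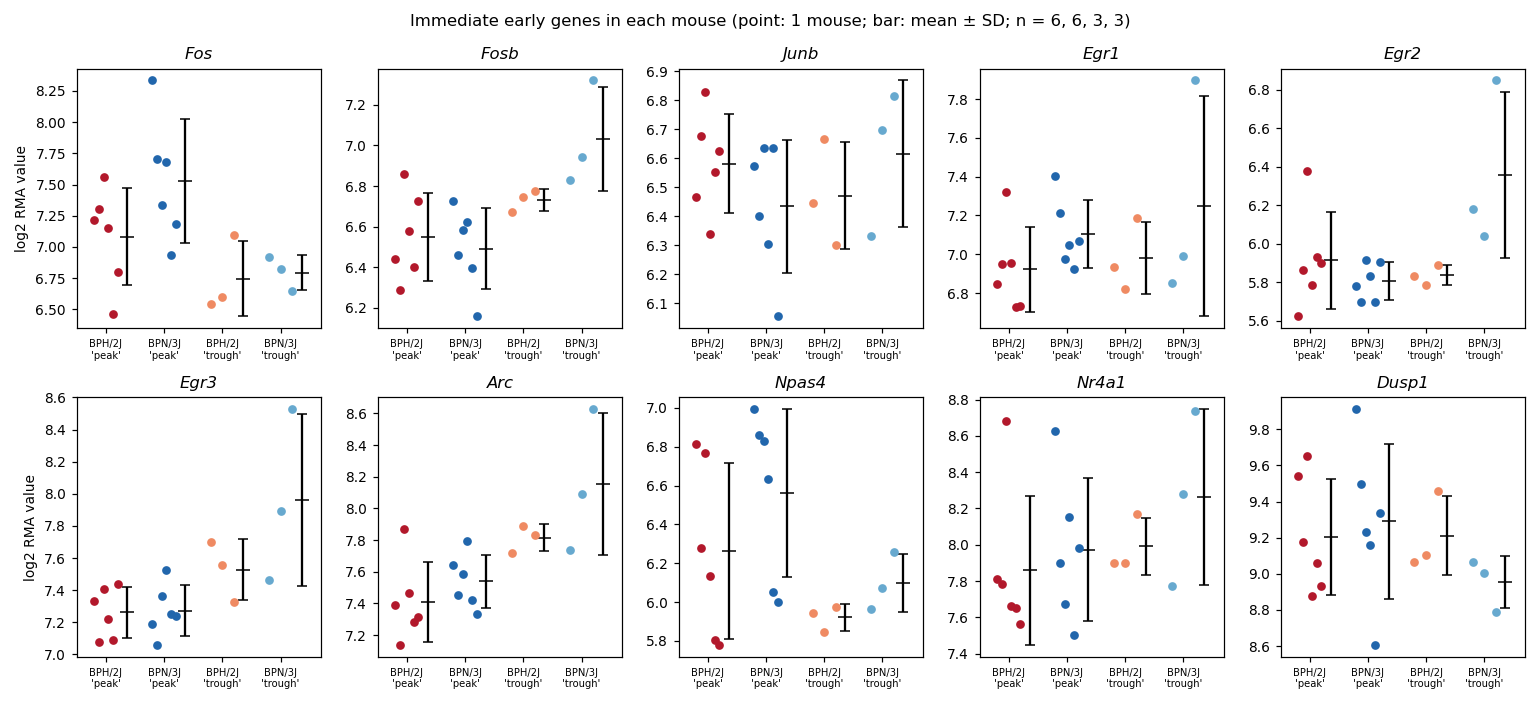
The log2 RMA value of each of the 10 genes is plotted for each mouse (points), for BPH/2J next to BPN/3J at ‘peak’ BP (n = 6 each) and then at ‘trough’ BP (n = 3 each), with the mean and SD of each group as a black bar. The 6 BPN/3J ‘peak’ mice lie above the 3 BPN/3J ‘trough’ mice for *Fos* and below them for *Fosb* and *Egr2*. Each panel has its own axis.

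In BPN/3J mice 5 of the 10 genes passed between the periods, 4 of them lower at ‘peak’ BP. In ‘peak’ relative to ‘trough’ mice *Fos* was higher, *Fosb*, *Egr2*, *Egr3* and *Arc* were lower, and the other 5 genes did not pass the test. The test was limma on all 18 arrays with Benjamini-Hochberg adjustment over all probesets, at an adjusted p under 0.05. The 5 genes that passed, 1 higher and 4 lower, stand against a background of 25.3% of all probesets in this comparison (12.9% higher and 12.4% lower). On the higher side, 1 gene of the 10 is not above that background. The median difference of the 10 genes was -0.24, against -0.012 over all probesets.

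*Fos* (probeset 10397346, chromosome 12) encodes the c-Fos subunit of the AP-1 transcription factor. Its log2 value had a lowest of 6.93, a median of 7.51 and a highest of 8.33 in BPN/3J ‘peak’ mice, and was 6.65, 6.82 and 6.92 in BPN/3J ‘trough’ mice. The groups did not overlap, although the lowest ‘peak’ mouse and the highest ‘trough’ mouse lay close together. The difference was 0.73 (SE 0.26, 1.66-fold, limma adjusted p = 0.048, exact permutation p = 0.0476, 2-sided). This call was lost in 11 of the 18 fits that left out 1 array, at adjusted p between 0.0539 and 0.122.

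*Fosb* (probeset 10560481, chromosome 7), another Fos family subunit of AP-1, went the other way. It had a lowest of 6.16, a median of 6.52 and a highest of 6.72 in BPN/3J ‘peak’ mice, and 6.83, 6.94 and 7.32 in BPN/3J ‘trough’ mice. All 6 ‘peak’ mice were below all 3 ‘trough’ mice, with a difference of -0.54 (SE 0.14, limma adjusted p = 0.0124, exact permutation p = 0.0119, the smallest that 6 against 3 mice allow). *Junb* (probeset 10580282, chromosome 8), a Jun family partner in AP-1, ran between 6.06 and 6.63 at ‘peak’ and between 6.33 and 6.82 at ‘trough’ BP, with a difference of -0.18 (SE 0.14, limma adjusted p = 0.361).

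*Egr2* and *Egr3* encode zinc finger transcription factors that bind the same GC-rich element as Egr1. *Egr2* (probeset 10363735, chromosome 10) had a lowest of 5.70, a median of 5.81 and a highest of 5.92 in BPN/3J ‘peak’ mice, and 6.04, 6.18 and 6.85 in BPN/3J ‘trough’ mice. The groups did not overlap and the ‘peak’ mice spanned a narrow range, with a difference of -0.55 (SE 0.16, limma adjusted p = 0.0192, exact permutation p = 0.0119). *Egr3* (probeset 10416251, chromosome 14) had a lowest of 7.06, a median of 7.25 and a highest of 7.53 at ‘peak’ BP, and 7.46, 7.89 and 8.53 at ‘trough’ BP. Its groups overlapped, since ‘trough’ mouse 1 lay below the highest ‘peak’ mouse, and the difference was -0.69 (SE 0.17, limma adjusted p = 0.00957, exact permutation p = 0.0238). *Egr1* (probeset 10454782), the member of the family most used as an activity marker, had a lowest of 6.92, a median of 7.06 and a highest of 7.40 at ‘peak’ BP, and 6.85, 6.99 and 7.90 at ‘trough’ BP, with a difference of -0.14 (SE 0.19, limma adjusted p = 0.597).

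*Arc* (probeset 10429491, chromosome 15), whose product acts at the synapse, had a lowest of 7.33, a median of 7.52 and a highest of 7.80 in BPN/3J ‘peak’ mice, and 7.74, 8.09 and 8.63 in BPN/3J ‘trough’ mice. The groups overlapped at 1 ‘trough’ mouse, with a difference of -0.61 (SE 0.17, limma adjusted p = 0.0162, exact permutation p = 0.0238). *Npas4* (probeset 10464905, chromosome 19), a factor induced by calcium entry in neurons and little by growth factors, had a lowest of 6.00, a median of 6.73 and a highest of 6.99 at ‘peak’ BP, and 5.96, 6.07 and 6.26 at ‘trough’ BP. Of the ‘peak’ mice, 4 lay above all ‘trough’ mice and the other 2 among them, and the difference of 0.46 did not pass the test (SE 0.25, limma adjusted p = 0.173). *Dusp1* (probeset 10449284, chromosome 17) ran between 8.60 and 9.91 at ‘peak’ and between 8.79 and 9.06 at ‘trough’ BP, and differed by 0.34 (SE 0.22, limma adjusted p = 0.266). *Nr4a1* (probeset 10427035, chromosome 15) ran between 7.50 and 8.63 at ‘peak’ and between 7.77 and 8.74 at ‘trough’ BP, and differed by -0.29 (SE 0.26, limma adjusted p = 0.414). Both genes overlapped widely between the groups. Over the 10 genes, 3 had groups that did not overlap (*Fos*, *Fosb* and *Egr2*), against 20.8% of all probesets.

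**Figure D2:**
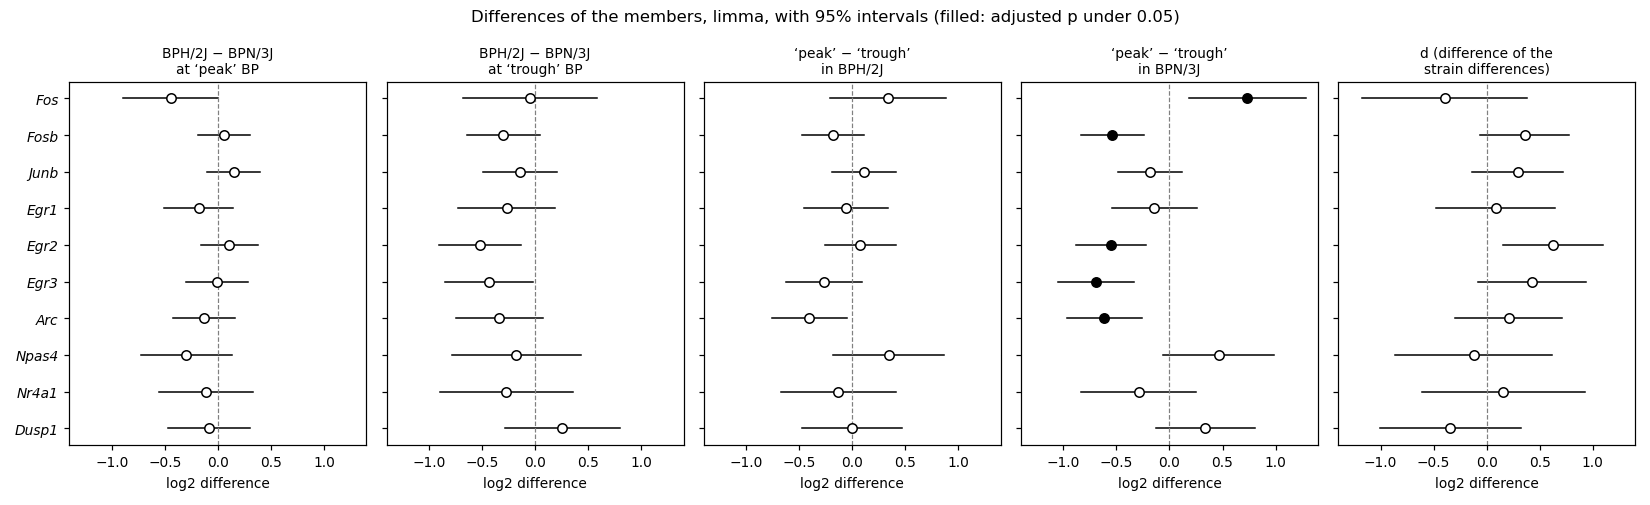
The log2 difference of each of the 10 genes (horizontal axis) is plotted with its 95% interval for the 5 comparisons, as first named minus second named group, and filled points passed at an adjusted p under 0.05 in limma. Filled points are found for *Fos*, *Fosb*, *Egr2*, *Egr3* and *Arc* in ‘peak’ against ‘trough’ BP in BPN/3J mice, and in no other panel.

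The calls for the 4 lower genes leaned on BPN/3J ‘trough’ mouse 4. This mouse was the highest of all 18 mice in 6 of the 10 genes (*Fosb*, *Egr1*, *Egr2*, *Egr3*, *Arc* and *Nr4a1*), and the highest of its group in 8. It was also the lowest of its 3 mice for *Fos* and *Dusp1*. Without this mouse 1 of the 10 genes passed, against 25.9% of all probesets: *Egr3*, with a difference of -0.41 (limma adjusted p = 0.0498). *Fosb* then differed by -0.39 (limma adjusted p = 0.0633), *Arc* by -0.38 (limma adjusted p = 0.0952), *Egr2* by -0.31 (limma adjusted p = 0.118) and *Fos* by 0.66 (limma adjusted p = 0.122). *Egr1* changed sign, to 0.18. The cortex and hippocampus markers averaged 7.995 in this mouse, against 6.82 and 7.03 in the other BPN/3J ‘trough’ mice. Of those 7 markers, 1 was lower in BPN/3J ‘peak’ than in BPN/3J ‘trough’ mice by limma, as were 12.4% of all probesets. With the mean of these markers as a covariate, a fit chosen after the values of mouse 4 were seen, the same 5 genes passed, against 29.3% of all probesets, and the differences were -0.49 for *Fosb*, -0.50 for *Egr2*, -0.61 for *Egr3*, -0.53 for *Arc* and 0.76 for *Fos*. The pituitary markers averaged between 5.04 and 6.03 in BPN/3J ‘peak’ and 5.67, 5.92 and 8.21 in BPN/3J ‘trough’ mice, and 3 of 5 were lower at ‘peak’ BP, against 12.4% of all probesets. Without mouse 3 of the ‘trough’ group, which held the 8.21, *Fosb*, *Egr2*, *Egr3* and *Arc* passed and *Fos* did not. Over the fits that left out 1 array, between 3826 and 9540 of the 34760 probesets passed in this comparison. The part of the pituitary content in the 10 genes was not tested.

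**Figure D3:**
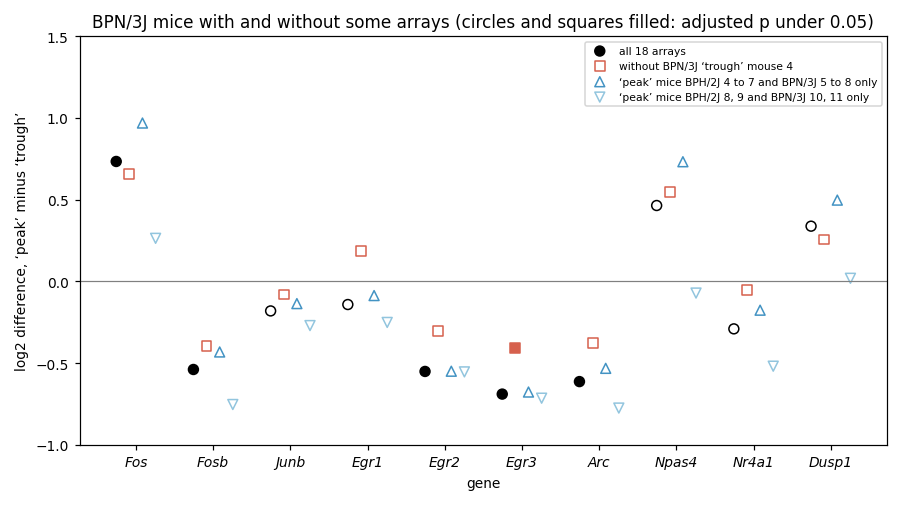
The log2 difference between ‘peak’ and ‘trough’ BP in BPN/3J mice (vertical axis) is plotted for the 10 genes with all 18 arrays (circles), without BPN/3J ‘trough’ mouse 4 (squares), and with only the lower-numbered (upward triangles) or higher-numbered ‘peak’ mice (downward triangles). Circles and squares are filled at an adjusted p under 0.05 in limma, and triangles carry no test. Without mouse 4 only *Egr3* is filled.

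In BPH/2J mice none of the 10 genes passed between ‘peak’ and ‘trough’ BP, against 8.64% of all probesets, and 1 had an unadjusted p under 0.05 (*Arc*), against 23.1%. *Fos* had a lowest of 6.46, a median of 7.19 and a highest of 7.56 in BPH/2J ‘peak’ mice, and 6.55, 6.60 and 7.09 in BPH/2J ‘trough’ mice. The lowest ‘peak’ mouse lay below all ‘trough’ mice, and the difference was 0.34 (SE 0.26, 95% interval -0.21 to 0.89, limma adjusted p = 0.481). *Npas4* had a lowest of 5.78, a median of 6.21 and a highest of 6.81 at ‘peak’ BP and 5.84, 5.94 and 5.98 at ‘trough’ BP, with a difference of 0.34 (SE 0.25, limma adjusted p = 0.450). Here too 4 ‘peak’ mice lay above the 3 ‘trough’ mice and 2 below them. *Arc* had a lowest of 7.14, a median of 7.35 and a highest of 7.87 at ‘peak’ BP, and 7.72, 7.83 and 7.89 at ‘trough’ BP. All but 1 of the ‘peak’ mice lay below the ‘trough’ mice, with a difference of -0.40 (SE 0.17, limma adjusted p = 0.154, exact permutation p = 0.0595).

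The other differences in BPH/2J mice were -0.27 for *Egr3* (SE 0.17), -0.18 for *Fosb* (SE 0.14), -0.13 for *Nr4a1* (SE 0.26), -0.056 for *Egr1* (SE 0.19), -0.0039 for *Dusp1* (SE 0.22), 0.075 for *Egr2* (SE 0.16) and 0.11 for *Junb* (SE 0.14). The median over the 10 genes was -0.030 and that of all probesets was -0.018. *Fos*, *Npas4*, *Fosb*, *Egr1*, *Egr3*, *Arc* and *Nr4a1* had the same sign of difference in both strains, while *Egr2* was at 0.075 in BPH/2J mice and at -0.55 in BPN/3J mice.

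Between the strains at ‘peak’ BP, where the BP of the strains differs most, none of the 10 genes passed, against 1.33% of all probesets, and none had an unadjusted p under 0.05 (9.93% of all probesets did). The largest difference in size was that of *Fos*, with a lowest of 6.46, a median of 7.19 and a highest of 7.56 in BPH/2J mice and a lowest of 6.93, a median of 7.51 and a highest of 8.33 in BPN/3J mice. The groups overlapped widely, and the BPH/2J minus BPN/3J difference was -0.45 (SE 0.21, 95% interval -0.89 to 0.0030, limma adjusted p = 0.508, exact permutation p = 0.113). *Npas4* differed by -0.30 (SE 0.20), *Egr1* by -0.18 (SE 0.15), *Arc* by -0.13 (SE 0.14), *Nr4a1* by -0.11 (SE 0.21), *Dusp1* by -0.084 (SE 0.18) and *Egr3* by -0.0098 (SE 0.14). The differences of *Junb* (0.15, SE 0.12), *Egr2* (0.11, SE 0.13) and *Fosb* (0.058, SE 0.11) were positive. A difference in *Fos* above 0.0030 in favour of BPH/2J mice lies outside its 95% interval, and one of up to -0.89 lies within it.

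At ‘trough’ BP 9 of the 10 genes had a negative BPH/2J minus BPN/3J difference, with a median of -0.27 against 0.0022 over all probesets, and none passed the test, against 0.529% of all probesets. With 3 against 3 mice the exact permutation test cannot go below 0.1. *Egr2* was 5.79, 5.83 and 5.89 in BPH/2J mice and 6.04, 6.18 and 6.85 in BPN/3J mice. The groups did not overlap, and the difference was -0.52 (SE 0.18, limma unadjusted p = 0.0110, limma adjusted p = 0.338). *Egr3* was 7.33, 7.56 and 7.70 in BPH/2J mice and 7.46, 7.89 and 8.53 in BPN/3J mice, with overlap and a difference of -0.43 (SE 0.20, limma unadjusted p = 0.0420, limma adjusted p = 0.464). These 2 genes were the ones with an unadjusted p under 0.05, as were 10.4% of all probesets. *Fosb* was 6.67, 6.75 and 6.77 in BPH/2J mice, below the 6.83, 6.94 and 7.32 of BPN/3J mice, and differed by -0.30 (SE 0.16, limma adjusted p = 0.537).

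*Dusp1* was the gene with a positive difference at ‘trough’ BP. It was 9.07, 9.10 and 9.46 in BPH/2J mice and 8.79, 9.01 and 9.06 in BPN/3J mice, without overlap but by a narrow gap, with a difference of 0.26 (SE 0.26, limma adjusted p = 0.740). *Fosb*, *Egr2* and *Dusp1* were the 3 genes whose groups did not overlap, against 19.9% of all probesets. *Fos* differed by -0.049 (SE 0.30) and *Npas4*, *Nr4a1*, *Egr1*, *Arc* and *Junb* by between -0.34 and -0.14. All of these comparisons include BPN/3J ‘trough’ mouse 4. Without it 8 of the 10 differences were negative, with a median of -0.099, and *Egr2* was at -0.27, *Fosb* at -0.15, *Egr3* at -0.15, *Arc* at -0.10 and *Dusp1* at 0.18.

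The strain difference at ‘peak’ BP minus that at ‘trough’ BP (*d*) asks whether the strains change differently between the periods, and its fold with the sign of *d* is the *aFD*. No gene passed, against 0% of all probesets, and 1 had an unadjusted p under 0.05, against 8.31% of all probesets. That gene was *Egr2*, with *d* = 0.63 (SE 0.22, 95% interval 0.16 to 1.10, limma unadjusted p = 0.0120, limma adjusted p = 0.589). Its *aFD* of 1.54 was the only one of the 10 at 1.5 or more in size, as reached by 5.93% of all probesets. The value of *d* was -0.40 for *Fos* (SE 0.37), -0.34 for *Dusp1* (SE 0.31) and -0.12 for *Npas4* (SE 0.35), and it was positive for the other 6 genes, between 0.085 for *Egr1* and 0.42 for *Egr3*. Without BPN/3J ‘trough’ mouse 4 or without BPH/2J ‘peak’ mouse 6 no gene reached an *aFD* of 1.5, and without the first *d* of *Egr2* was 0.38.

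The ‘peak’ mice of both strains fell into higher and lower *Fos* and *Npas4* values along the mouse numbers in their titles. The labels do not say what the numbers stand for, and number 8 falls on the higher side in BPH/2J and on the lower side in BPN/3J mice. The 2 higher-numbered BPH/2J mice (8 and 9) had *Npas4* values of 5.81 and 5.78, and the 4 lower-numbered ones (4 to 7) had 6.81, 6.28, 6.77 and 6.14. The 2 higher-numbered BPN/3J mice (10 and 11) had 6.05 and 6.00, and the 4 lower-numbered ones (5 to 8) had 6.99, 6.86, 6.83 and 6.63. *Npas4* was the one gene of the 10 for which the 4 higher-numbered and the 8 lower-numbered mice of both strains together did not overlap, as held for 12.1% of all probesets.

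*Fos* did not overlap within either strain. In BPH/2J mice it was 6.46 and 6.80 in the higher-numbered and ran between 7.15 and 7.56 in the lower-numbered mice. In BPN/3J mice it was 6.93 and 7.18 in the higher-numbered and ran between 7.33 and 8.33 in the lower-numbered mice. The higher-numbered minus lower-numbered means were -0.68 in BPH/2J mice and -0.71 in BPN/3J mice for *Fos*, and -0.71 in BPH/2J mice and -0.80 in BPN/3J mice for *Npas4*. For *Egr2*, *Egr3* and *Junb* they lay between -0.13 and 0.010. The split was chosen with earlier results of these data known.

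Because the split follows the values of *Fos* and *Npas4*, the direction in which they move when one side is kept is fixed by that choice, and the values are given with no test. With only the lower-numbered ‘peak’ mice, ‘peak’ minus ‘trough’ was 0.58 in BPH/2J mice and 0.73 in BPN/3J mice for *Npas4*, and 0.56 in BPH/2J mice and 0.97 in BPN/3J mice for *Fos*. With only the higher-numbered ‘peak’ mice it was -0.13 in BPH/2J mice and -0.072 in BPN/3J mice for *Npas4*, and -0.11 in BPH/2J mice and 0.26 in BPN/3J mice for *Fos*. The sign of both genes in BPH/2J mice, and of *Npas4* in BPN/3J mice, depended on which ‘peak’ mice enter. The same 4 higher-numbered mice were also below the lower-numbered mice of their strain in 3 of the 14 marker lists in both strains. The mean of the endothelial markers was 7.85 and 7.86 in the higher-numbered and at least 8.02 in the lower-numbered BPH/2J mice, and 7.84 and 7.75 in the higher-numbered and at least 7.86 in the lower-numbered BPN/3J mice. The microglial markers (at most 7.34 against at least 7.49 in BPH/2J mice, and at most 7.46 against at least 7.48 in BPN/3J mice) and the ependymal markers (at most 6.88 against at least 6.999 in BPH/2J mice, and at most 6.73 against at least 7.10 in BPN/3J mice) did likewise. In the higher-numbered BPN/3J mice the hypothalamic markers (7.25 and 7.23, against at least 7.54) were also below those of the lower-numbered mice. So were their choroid plexus, meningeal, and cortex and hippocampus markers. In BPH/2J mice none of these lists separated in this way. The hypothalamic means there were 7.91 and 7.99 in the higher-numbered mice and between 7.51 and 8.13 in the lower-numbered mice. Within either ‘peak’ group the arrays of the higher-numbered mice had the lowest mean correlations with that group. These were 0.984 and 0.983 in BPH/2J and 0.978 and 0.967 in BPN/3J mice. The part of these differences in *Fos* and *Npas4* was not tested.

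**Figure D4:**
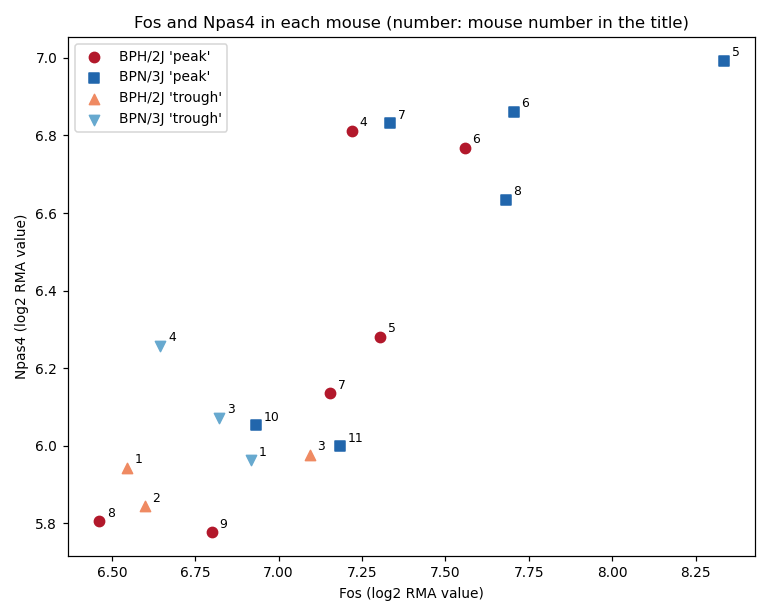
The log2 RMA value of *Npas4* (vertical axis) is plotted against that of *Fos* (horizontal axis) for each mouse, with the colour and shape giving strain and period and the number giving the mouse number of the title. BPH/2J ‘peak’ mice 8 and 9 and BPN/3J ‘peak’ mice 10 and 11 lie at 6.05 or below in *Npas4*, among the 6 ‘trough’ mice or, for the 2 BPH/2J mice, below them, and the other 8 ‘peak’ mice reach up to 8.33 in *Fos* and 6.99 in *Npas4*.

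From mouse to mouse within a group, the 10 genes varied more than most probesets and tended to move together. The SD within groups was above the median of all probesets (0.196) for 10 of the 10 genes. It was 0.396 for *Fos* (percentile 86.1 of all probesets), 0.391 for *Nr4a1*, 0.378 for *Npas4* and 0.335 for *Dusp1*, and lowest for *Fosb* at 0.202 (percentile 52.5). Of the 45 pairs of genes, 42 had a positive Pearson correlation of their deviations from the group means over the 18 mice, with a median r of 0.51. These correlations are across mice that share arrays between the genes, and they are given as a description. They were not set against pairs of other probesets. The deviations, and so the SDs and correlations, include the differences between higher- and lower-numbered ‘peak’ mice given above for *Fos* and *Npas4*.

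Among the pairs, *Fos* followed *Dusp1* (r = 0.80), *Npas4* (0.75) and *Nr4a1* (0.65), and *Npas4* followed *Dusp1* (0.71). The promoter windows of these 4 genes are the ones printed with that of *Fosb*. *Arc* followed *Fosb* (0.85), *Egr3* (0.76), *Nr4a1* (0.76) and *Egr1* (0.75), and *Egr1* followed *Nr4a1* (0.83) and *Egr2* (0.74). Other pairs were lower, such as 0.037 for *Fos* with *Egr2*, 0.023 for *Fos* with *Junb*, -0.16 for *Fos* with *Egr3* and -0.22 for *Egr3* with *Dusp1*. Some of them rest on BPN/3J ‘trough’ mouse 4. Without it *Egr1* with *Egr3* was -0.11, against 0.51 with it, *Egr1* with *Egr2* was 0.45, and *Fos* with *Egr1* was 0.84, against 0.45 with it. *Fos* with *Npas4* was 0.78 and *Fos* with *Dusp1* 0.80 without that mouse. The deviations of *Arc* also followed those of the cortex and hippocampus markers (r = 0.72), as did *Egr3* (0.69) and *Fosb* (0.54), while *Fos* did so less (0.16).

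**Figure D5:**
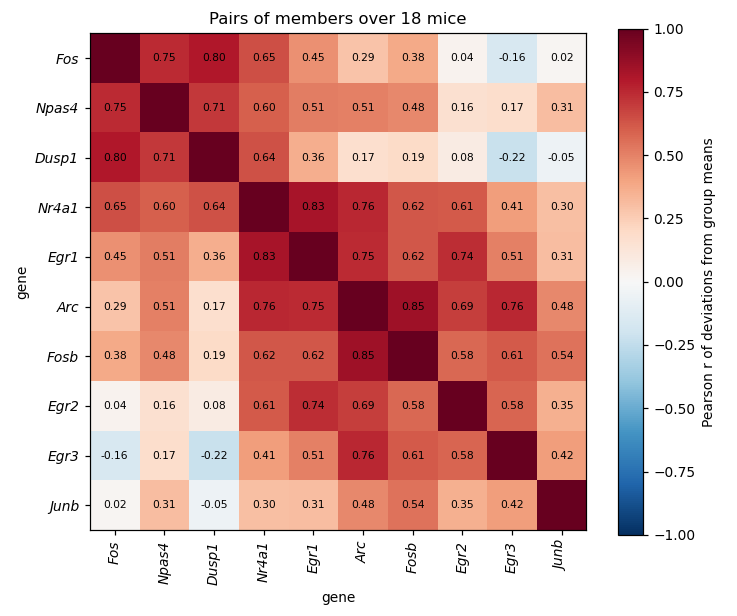
The Pearson r of the deviations from group means over 18 mice is shown for each pair of the 10 genes, with colour from -1 (blue) to 1 (red) and r printed in each cell. *Fos*, *Npas4*, *Dusp1* and *Nr4a1* are linked by values between 0.60 and 0.80, and *Fos* with *Egr2*, *Egr3* or *Junb* lies between -0.16 and 0.037.

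Single mice stood out across several genes. Averaged over the 10 genes, the deviation from the mean of all 18 mice was highest in BPN/3J ‘trough’ mouse 4 (0.47), BPH/2J ‘peak’ mouse 6 (0.35) and BPN/3J ‘peak’ mouse 5 (0.34). These deviations include the differences between the groups. BPN/3J ‘peak’ mouse 5 was the highest of all 18 mice for *Fos* (8.33), *Npas4* (6.99) and *Dusp1* (9.91), while mouse 6 of the BPH/2J ‘peak’ group was the highest of its group in 8 genes. The lowest averages were those of BPH/2J ‘peak’ mouse 8 (-0.28) and BPN/3J ‘peak’ mouse 10 (-0.24). In BPH/2J ‘peak’ mouse 6 the mean of 5 striatal markers was 9.48, against at most 9.04 in the other mice. Its choroid plexus (9.16) and meningeal (7.36) marker means were the highest of its group, and its hypothalamic mean (7.51) was the lowest. The part of the tissue content in its values was not tested.

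Of 44 other immediate early genes listed, 41 were measured. In BPN/3J mice 2 were higher and 4 lower at ‘peak’ than at ‘trough’ BP, against 25.3% of all probesets in either direction, and their median difference was -0.071. *Ier3*, a survival factor induced by growth and stress signals, was higher by 0.83 (limma adjusted p = 0.00158), and *Crem*, which includes the inducible CREB repressor ICER, by 0.51 (limma adjusted p = 0.0206). *Egr4*, the fourth Egr factor, was lower as *Egr2* and *Egr3* were, with a difference of -0.44 (limma adjusted p = 0.0116). The other lower genes were *Pim1*, a serine/threonine kinase, with -0.32 (limma adjusted p = 0.0278), *Ccn2* (*Ctgf*), a secreted matrix-associated protein, with -0.46 (limma adjusted p = 0.0381), and *Fosl2*, a Fos family subunit, with -0.46 (limma adjusted p = 0.0451). In BPH/2J mice 2 were higher, against 8.64% of all probesets in either direction, *Ier3* by 0.67 (limma adjusted p = 0.00996) and *Sgk1*, a kinase also induced by glucocorticoids, by 0.51 (limma adjusted p = 0.0403). *Sgk1* was also higher in BPH/2J than in BPN/3J mice at ‘peak’ BP, by 0.54 (limma adjusted p = 0.0307), and was the 1 gene of the list that passed between the strains, against 1.33% of all probesets at ‘peak’ BP.

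Genes that act before and after the immediate early genes were listed as well. Of 23 later effectors of activity, 1 was higher and 3 were lower at ‘peak’ than at ‘trough’ BP in BPN/3J mice, against 25.3% of all probesets, and none passed in the other comparisons. *Tac1*, the precursor of substance P, was higher by 0.71, while *Gpr3*, a constitutively active receptor, differed by -0.55, *Cort*, the precursor of cortistatin, by -0.51, and *Mmp9*, a matrix metalloproteinase, by -0.51, all 4 with limma adjusted p between 0.00484 and 0.0231. Of 34 measured regulators on the calcium, CREB, SRF and MEF2 routes, 1 was higher and 3 were lower at ‘peak’ than at ‘trough’ BP in BPH/2J mice, against 8.64% of all probesets, and 1 was higher and 6 were lower in BPN/3J mice, against 25.3%. *Ppp3r1*, the regulatory subunit of calcineurin, was higher in both strains, by 0.46 in BPH/2J mice and 0.45 in BPN/3J mice. *Camkk2*, a kinase upstream of CaMKI and CaMKIV, was at -0.59 in BPH/2J mice and -0.51 in BPN/3J mice. *Elk1*, an SRF partner, was at -0.48 in BPH/2J mice and -0.39 in BPN/3J mice, and both genes passed in both strains. *Crebbp*, the CREB binding protein, was at -0.53 in BPH/2J mice, and the CREB coactivator *Crtc1* was at -0.54 and the SRF coactivator *Mrtfa* (*Mkl1*) at -0.39 in BPN/3J mice. None of these 34 passed between the strains at either time. Of 13 measured heat shock and glucocorticoid-induced genes, *Dnajb1* (0.33) and *Errfi1* (0.35) were higher in BPH/2J mice at ‘peak’ than at ‘trough’ BP, against 8.64% of all probesets in either direction. In BPN/3J mice *Errfi1* was higher (0.44) and *Hspb1* lower (-0.42), against 25.3% of all probesets.

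The genes whose deviations were most like the mean scaled deviation of the 10 genes, among 15446 probesets that were not dim, were *Ksr2* (r = 0.87), *Smad3* (0.87), *Zfp111* (0.87), *Pde8b* (0.86), *Crtc1* (0.86), *Nme7* (0.86), *Gas7* (0.85) and *Ptprk* (0.85), each over 18 mice. *Crtc1* is the one of these 8 that is also in the regulator list.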

How the data were processed

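RNA of the hypothalamus was measured on 18 Affymetrix Mouse Gene 1.0 ST arrays, 1 mouse each, with no pooling. RMA had been run by the authors, and what they deposited are log2 expression values of 34760 probesets. The submitters' processing notes name RMA and limma, and the version of each is not given in the sources used. Mice were grouped by the strain and period in their titles. Probesets were named by the platform annotation: 21640 had 1 symbol, 1321 several and 11799 none.

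A model of the 4 groups was fitted to all 18 arrays in R 4.3.3 with limma 3.58.1 (14 residual and 2.94 prior degrees of freedom), with Benjamini-Hochberg adjustment over all probesets and a threshold of 0.05. The comparisons were BPH/2J against BPN/3J for either period, the 2 periods within either strain, and *d*. The *aFD* was taken from group means without a test. Each of the 10 genes was also put through an exact permutation test (2-sided). The numbers of arrays limit the precision. Likeness was ranked over probesets with 1 symbol whose mean was above the 40th percentile. From each pathway list up to 6 genes that passed are named, by smallest p, and *Fosl2* was named besides for completeness of a count. The fit was tested on simulated data in which 200 probesets were changed by 1. It recovered between 63.5% of them (*d*) and 90.5% (between the strains at ‘peak’ BP). False calls were between 3.43% of calls (between the periods in BPH/2J mice) and 8.02% (between the strains at ‘trough’ BP). All differences of the 10 genes were smaller than 1 in size, so this does not give the recovery for such differences.

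The genes and lists were chosen with earlier results of these data known. Alternatives were other normalizations, filters, priors, array weights, subsets of the mice and a replicate block. Mouse numbers occur in both strains (6 pairs), but residual correlations between same-numbered mice ran from -0.30 to 0.19, so they were not taken to pair mice.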

Additional observations from a re-analysis of the deposited data

Results flagged for a closer look

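*Nr4a1* in BPH/2J ‘peak’ mouse 6 was far from the other 5 mice of its group. Its log2 value was 8.68 and the next highest was 7.81, a gap of 0.777 of the range of the group, above the Dixon critical value for 6 samples. Of 20 groups tested (10 genes in the 2 groups of 6), 1 stood out in this way, and chance gives about 1 in 20.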

How the results depend on the processing

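The number of the 10 genes that passed in ‘peak’ against ‘trough’ BP in BPN/3J mice was 5, and it was 3 after quantile normalization (*Fosb*, *Egr3* and *Arc*), 3 after median centring (*Fos*, *Fosb* and *Egr3*), 2 with those 2 groups alone (*Fosb* and *Egr3*), 1 with the higher-numbered ‘peak’ mice and between 1 and 5 when 1 array was left out, where the 1 (*Egr3*) came from leaving out mouse 4 of the BPN/3J ‘trough’ group. It was 7 with array weights. Those weights also raised the calls over all probesets in this comparison above the 25.3% found without them, as given below. The weighting favoured 1 array, mouse 3 of the BPN/3J ‘trough’ group, at 9.44 against 0.409 for mouse 1 and 0.636 for mouse 4. The 7, and the calls with array weights named next, therefore cannot be read as particular to these genes. In the other comparisons none passed, except 1 between the strains at ‘trough’ BP with array weights (*Egr3*), and in BPH/2J mice 2 with array weights (*Arc* and *Npas4*) and 1 with the lower-numbered ‘peak’ mice (*Npas4*). The lower- and higher-numbered ‘peak’ mice were split along the values of *Fos* and *Npas4*, so calls within these subsets are no test of those genes. Leaving out 1 array gave 0 in these 4 comparisons throughout. The 1 gene with an *aFD* of 1.5 or more became 0 after quantile normalization, with array weights and with group medians, 2 with the higher-numbered mice or without BPN/3J ‘peak’ mice 10 and 11, whose arrays correlated least with their group, and between 0 and 2 with 1 array left out.

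By exact permutation 5 genes had p under 0.05 between the periods in BPN/3J mice, 3 without BPN/3J ‘peak’ mice 10 and 11, 3 with the lower-numbered and 0 with the higher-numbered ‘peak’ mice, and between 1 and 6 with 1 array left out. In BPH/2J mice the count was 0, and it was 1 with the lower-numbered mice and between 0 and 2 with 1 array left out. Between the strains at ‘peak’ BP it was 0, and it was 1 without those 2 BPN/3J mice (*Fos*) and between 0 and 2 with 1 array left out. The permutation test was run on the 10 genes only. These counts therefore have no share over all probesets beside them and cannot be read as particular to these genes.

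The sign of some differences near 0 turned, none of them past the threshold. Between the strains at ‘peak’ BP, *Egr3* became 0.017 after quantile normalization, 0.026 after median centring, 0.017 with the higher-numbered mice and 0.037 with the marker covariate. *Fosb* there became -0.043 with array weights, -0.066 with the replicate block, -0.056 with the lower-numbered mice and -0.049 when BPN/3J ‘peak’ mice 10 and 11 were left out, and *Dusp1* 0.025 with the higher-numbered mice. At ‘trough’ BP *Fos* became 0.023 after median centring, and with the replicate block *Egr1* became 0.14 and *Nr4a1* 0.011. Between the periods in BPH/2J mice *Egr1* became 0.0033 after median centring, 0.023 with array weights, 0.039 with the lower-numbered mice and 0.011 with the covariate, *Dusp1* 0.056 after median centring, 0.076 with array weights and 0.10 with the lower-numbered mice, and with the higher-numbered mice *Fos* became -0.11 and *Npas4* -0.13. In BPN/3J mice *Egr1* became 0.11 with array weights and *Npas4* -0.072 with the higher-numbered mice. For *d*, *Egr1* became -0.087 with array weights and -0.31 with the replicate block, *Arc* -0.043 and *Nr4a1* -0.15 with that block.

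With 1 array left out, 24 of 900 differences of single genes turned. The ranges were, between the strains at ‘trough’ BP, -0.22 to 0.051 for *Fos* and -0.46 to 0.058 for *Egr1*. At ‘peak’ BP they were -0.053 to 0.041 for *Egr3*, -0.0085 to 0.11 for *Fosb*, -0.28 to 0.016 for *Nr4a1* and -0.22 to 0.040 for *Dusp1*. Between the periods they were -0.14 to 0.046 for *Egr1*, -0.093 to 0.12 for *Dusp1* and -0.017 to 0.13 for *Egr2* in BPH/2J mice, and -0.34 to 0.18 for *Egr1* in BPN/3J mice. For *d* they were -0.24 to 0.28 for *Egr1*, -0.028 to 0.42 for *Arc* and -0.080 to 0.40 for *Nr4a1*. Under the other settings 522 of 570 such differences kept their sign and their side of the threshold. The cause of these changes was not tested.

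The replicate block, over the 12 mice whose number occurs in both strains, left 0 of the 10 genes passing in the 3 comparisons it can fit, and not ‘peak’ against ‘trough’ BP, since the numbers lie within a period. Over all probesets it gave 139 calls at ‘peak’ BP and 29 at ‘trough’ BP. The fit of all 18 arrays without a block gave 462 and 184. These 2 fits differ in the number of arrays as well as in the block. With array weights, of 34760 probesets, the calls were 8091 between the strains at ‘trough’ BP, 9257 in BPH/2J (3005 without), 19431 in BPN/3J (8803 without) and 997 for *d* (0 without). With the 2 groups alone they were 67 at ‘trough’ BP and 4763 in BPN/3J mice. With the lower-numbered mice they were 349 at ‘trough’ BP, 6675 in BPH/2J mice and 1 for *d*, and with the higher-numbered mice 96 at ‘peak’ BP, 103 at ‘trough’ BP, 784 in BPH/2J mice and 2235 in BPN/3J mice. With 1 array left out they ran between 82 and 228 at ‘trough’ BP, 1035 and 3533 in BPH/2J mice and 3826 and 9540 in BPN/3J mice. Groups of 3 mice limit all ‘trough’ comparisons.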

Other observations

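Some markers of vessels and meninges differed between the periods in both strains. In BPH/2J mice 2 of 8 endothelial, 2 of 7 smooth muscle and pericyte, and 2 of 7 meningeal markers were lower at ‘peak’ than at ‘trough’ BP by limma, against 8.64% of all probesets in either direction. In BPN/3J mice 1 endothelial marker was higher and 1 lower, 1 smooth muscle and pericyte marker higher and 2 lower, and 1 meningeal marker lower, against 25.3% of all probesets. Of 10 neuron markers, 2 passed in BPN/3J mice, both lower at ‘peak’ than at ‘trough’ BP (*Rbfox3* and *Tubb3*), against 25.3% of all probesets. In BPH/2J mice 2 passed, both higher (*Stmn2* and *Gap43*), against 8.64%. Each of these genes had the same sign in both strains. In BPH/2J and BPN/3J mice the differences were -0.33 and -0.30 for *Rbfox3* and -0.21 and -0.35 for *Tubb3*. They were 0.30 and 0.17 for *Stmn2* and 0.31 and 0.23 for *Gap43*. None of 7 choroid plexus markers passed in any of the 5 comparisons, although their mean ran between 6.26 and 9.39 over the 18 mice.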
